A study of Mus musculus with 6 samples.

Results

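The genes described here are 10 genes of mast cells: CPA3, CMA1, MCPT4, TPSB2 and TPSAB1 (granule proteases), MS4A2 and FCER1A (chains of the IgE receptor), KIT (a growth factor receptor), GATA2 (a transcription factor) and HDC (histidine decarboxylase). They were taken by symbol, and all 10 are present among the 46937 symbols of the count table. Total RNA had been sequenced from biopsies of genetically driven squamous tumours of the mouse lung, with 3 libraries in each of 2 groups. PSCN tumours, labelled NSD3T1242A, carry constitutively active PI3K (Pik3caH1047R), SOX2 overexpression (Sox2OE), deletion of Cdkn2a/b and the NSD3 T1242A mutant, a form of a histone H3 lysine methyltransferase. PSC tumours, labelled NSD3 WT and used as the control, carry the same PI3K, SOX2 and Cdkn2a/b alterations without the mutant. The labels give neither the age of the mice, nor what drives the transgenes, nor whether each biopsy came from its own mouse. The p-values therefore reflect the spread among these libraries alone, which need not be spread between mice.

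Mast cells are tissue-resident leukocytes that depend on the KIT receptor and its ligand, stem cell factor. IgE bound to their high-affinity receptor triggers the release of granules that hold histamine, proteases and the proteoglycans that store them. HDC is the enzyme that makes histamine from histidine, and GATA2 is needed for mast cells to form. KIT, GATA2 and HDC are also made by other cells, GATA2 for example by endothelium, whereas the granule proteases and MS4A2 are largely limited to mast cells and, for some, basophils.

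Total counts ran from 70979353 to 72807077 in PSCN libraries and from 69563622 to 72281119 in PSC libraries. NSD3 counts followed the labels, at 821, 918 and 1930 CPM (counts relative to library size after TMM adjustment) in PSCN libraries 1, 2 and 3, against 79.7, 96.7 and 102 CPM in PSC libraries 1, 2 and 3. Summed squamous markers (KRT5, KRT14, TP63, SPRR1B, DSG3 and IVL) reached 5900 to 19400 CPM in PSCN, against 121 to 4610 CPM in PSC, where library 1 was lowest. PSC library 3 stood closer to PSCN libraries than to its own group, with a mean correlation of log2 CPM across genes of 0.941 and 0.908, genes not being independent replicates. Sex was read from XIST alone, as female above 100 CPM. By that split PSC libraries 2 and 3 were read as female and the other 4 libraries as male, so sex as read is uneven between the groups. Counts of NSD3 pool any transgene with the endogenous gene, and the strand setting of the counting is not stated in the labels.

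The sequence around the start of transcription is shown for 4 of the genes, because their counts went different ways: CPA3 and MS4A2, at or near 0 in PSCN and low in PSC; HDC, abundant and lower in PSCN; and KIT, abundant at overlapping levels. Each run is 250 bases before the start to 50 after it, from RefSeq on GRCm38.p6, 5′ to 3′ along the gene. Capitals mark GATAA or its reverse complement TTATC, a form of the letters that GATA factors recognise. Other forms, such as the GATAG in the HDC window, were not searched and are not marked. CPA3 lies at chr3:20242132-20242431, MS4A2 at chr19:11623670-11623969 and HDC at chr2:126618629-126618928, all on the minus strand, and KIT at chr5:75574737-75575036 on the plus strand, where the first of 2 listed starts was taken.
CPA3: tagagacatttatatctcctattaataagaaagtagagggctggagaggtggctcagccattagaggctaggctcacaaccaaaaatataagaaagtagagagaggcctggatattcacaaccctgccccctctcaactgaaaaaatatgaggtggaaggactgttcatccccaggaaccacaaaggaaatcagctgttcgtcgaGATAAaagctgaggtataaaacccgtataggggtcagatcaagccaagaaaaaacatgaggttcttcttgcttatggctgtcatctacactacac
MS4A2: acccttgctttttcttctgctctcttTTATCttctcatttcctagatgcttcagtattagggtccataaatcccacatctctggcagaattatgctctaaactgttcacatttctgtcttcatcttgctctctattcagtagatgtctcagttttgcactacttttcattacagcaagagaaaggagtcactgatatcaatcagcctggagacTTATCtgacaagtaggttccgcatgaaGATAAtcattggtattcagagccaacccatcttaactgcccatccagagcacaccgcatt
HDC: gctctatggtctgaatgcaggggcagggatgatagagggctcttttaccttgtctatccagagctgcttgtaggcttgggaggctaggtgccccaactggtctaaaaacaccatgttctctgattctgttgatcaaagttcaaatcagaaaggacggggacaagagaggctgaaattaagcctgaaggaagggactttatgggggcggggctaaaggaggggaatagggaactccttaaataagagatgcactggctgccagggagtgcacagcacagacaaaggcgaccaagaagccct
KIT: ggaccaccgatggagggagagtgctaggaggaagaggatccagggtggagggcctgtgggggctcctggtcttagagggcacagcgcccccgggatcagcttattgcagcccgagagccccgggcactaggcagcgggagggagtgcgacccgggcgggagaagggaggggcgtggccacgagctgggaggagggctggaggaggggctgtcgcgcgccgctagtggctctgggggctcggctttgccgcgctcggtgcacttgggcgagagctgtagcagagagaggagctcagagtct

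Promoter sequences were matched for 8 of the 10 genes, all but TPSB2 and TPSAB1. The letters GATAA occurred on either strand in 5 of these 8, once each in CPA3, FCER1A, CMA1 and MCPT4 and 3 times in MS4A2, and did not occur in HDC, KIT or GATA2. Of all 32851 promoters of 300 bases, 25.4% held them. In CPA3 the match began 45 bases before the start, and in MS4A2 the nearest began 10 bases before it. A match describes the letters in this window and shows no binding. Lack of a GATAA match does not mean that the window lacks other forms, such as GATAG.

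The 5 granule proteases were nearly without counts in PSCN and scarce in PSC. Together they had 8, 14 and 15 counts in PSCN libraries 1, 2 and 3, against 252, 171 and 355 counts in PSC libraries 1, 2 and 3. Their summed level was 0.117, 0.216 and 0.209 CPM in PSCN and 3.40, 2.26 and 4.84 CPM in PSC, so the groups stood apart. The highest sum was that of PSC library 3, the library whose overall profile lay nearest to PSCN. In bulk tumour RNA, fewer mast cells and less RNA per mast cell cannot be told apart.

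CPA3, a carboxypeptidase stored in mast cell granules (chromosome 3, 20215620 to 20242181 in GRCm38), had 2, 3 and 3 counts in PSCN libraries 1, 2 and 3, against 33, 54 and 84 counts in PSC libraries 1, 2 and 3. Every PSCN library lay below every PSC library. It averaged 0.0391 ± 0.00892 CPM in PSCN and 0.767 ± 0.353 CPM in PSC (SD, n = 3 each). The ratio of the summed counts, corrected for library size, was 0.0510, with an exact 95% interval of 0.0217 to 0.103 that covers counting error only, since reads that carry no molecular identifier may repeat a molecule. Its log2 fold change was -4.24 (SE 0.54; edgeR's quasi-likelihood test, adjusted p = 0.137 over 21201 genes), which did not pass the threshold of 0.05.

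CMA1, the chymase that shares granules with CPA3 (chromosome 14, 55941451 to 55944675), had 0, 11 and 5 counts in PSCN, against 35, 68 and 91 counts in PSC, libraries 1 to 3 in each. The groups did not overlap. The log2 fold change was -3.43 (SE 1.06; edgeR adjusted p = 0.192), and ran from -2.84 without PSCN library 1, which had 0 counts, to -4.59 without PSCN library 2, which had the most of the PSCN libraries. MCPT4, another chymase of the same cluster (chromosome 14, 56059629 to 56062313), had 0, 0 and 7 counts in PSCN libraries 1 to 3, against 44, 3 and 46 counts in PSC libraries 1 to 3. PSCN library 3 stood above PSC library 2, so the groups overlapped, and MCPT4 did not pass the filter on low counts. With no filter its log2 fold change was -3.62 (SE 1.60; edgeR adjusted p = 0.336). These proteases belong to families of similar sequence, and the counting may have split reads among them.

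The tryptases TPSB2 and TPSAB1 are trypsin-like granule proteases from neighbouring genes on chromosome 17 (25366305 to 25369098 and 25343245 to 25345562), close enough in sequence that their separate counts are uncertain. TPSB2 had 0 counts in each PSCN library, against 46, 22 and 86 counts in PSC libraries 1, 2 and 3. Taking 3 counts per library as the limit that a count of 0 allows, it was at least 15.8-fold lower in PSCN (edgeR adjusted p = 0.171, not passed). TPSAB1 had 6, 0 and 0 counts in PSCN libraries 1 to 3, against 94, 24 and 48 counts in PSC libraries 1 to 3. Its log2 fold change was -4.59 (SE 1.30; edgeR adjusted p = 0.190). PSCN library 1 held all 6 of the PSCN counts, and without it the gene was at 0 in PSCN.

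The IgE receptor is built from the IgE-binding chain FCER1A, the amplifying chain MS4A2 and the signalling chain FCER1G, which other Fc receptors also use. MS4A2 (chromosome 19, 11615523 to 11623719) had 0 counts in each PSCN library, against 27, 34 and 11 counts in PSC libraries 1, 2 and 3. Against 3 counts per library it was at least 7.30-fold lower in PSCN (edgeR adjusted p = 0.171, not passed). FCER1A (chromosome 1, 173221284 to 173227214) had 0 counts in each PSCN library and 0, 0 and 5 counts in PSC libraries 1 to 3, which is too few for a fold change. FCER1G, in contrast, stood at 47.5, 37.8 and 67.6 CPM in PSCN libraries 1 to 3, against 19.4, 39.1 and 37.3 CPM in PSC libraries 1 to 3, with overlapping groups and a log2 fold change of 0.68 (SE 0.34; edgeR adjusted p = 0.298).

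HDC was far more abundant than the granule proteases and lower in PSCN. It stood at 13.6, 33.0 and 38.9 CPM in PSCN libraries 1, 2 and 3, against 195, 136 and 96.2 CPM in PSC libraries 1, 2 and 3. The lowest PSC library was above the highest PSCN library. HDC (chromosome 2, 126593667 to 126619299) averaged 28.5 ± 13.2 CPM in PSCN and 142 ± 49.7 CPM in PSC (SD, n = 3 each), 5.0-fold lower in PSCN. Its log2 fold change was -2.32 (SE 0.47, 95% interval -3.46 to -1.18), and it did not pass with edgeR (adjusted p = 0.171).

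Within PSC, HDC and CPA3 did not follow the same order. HDC was highest in PSC library 1 and lowest in PSC library 3, and CPA3 was lowest in PSC library 1 and highest in PSC library 3. CMA1 had the order of CPA3, and TPSB2 and MCPT4 were also highest in PSC library 3. Like HDC, TPSAB1 was highest in PSC library 1 and MS4A2 was lowest in PSC library 3. Per kilobase of exon, the HDC level was 111, 169 and 221 times the CPA3 level in PSCN libraries 1, 2 and 3, where CPA3 rested on 2 or 3 counts, against 104, 45.4 and 20.0 times in PSC libraries 1, 2 and 3. On the same scale HDC averaged 4.46 CPM per kilobase in PSCN and 22.3 CPM per kilobase in PSC, whereas CPA3 averaged 0.0258 and 0.506 CPM per kilobase in PSCN and PSC. How much of the HDC in these biopsies came from mast cells was not tested.

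KIT, the receptor for stem cell factor (chromosome 5, 75574916 to 75656722), did not separate the groups. It stood at 99.8, 92.9 and 172 CPM in PSCN libraries 1 to 3, against 130, 123 and 148 CPM in PSC libraries 1 to 3. PSCN library 3 was the highest of all, and PSCN libraries 1 and 2 were the lowest. The log2 fold change was -0.14 (SE 0.27, 95% interval -0.79 to 0.52; edgeR adjusted p = 0.777), an interval that holds no change as well as differences in either direction. It ran from 0.00 without PSCN library 1 to -0.49 (SE 0.17; edgeR adjusted p = 0.342) without PSCN library 3. Per kilobase of exon KIT averaged 13.6 CPM in PSCN and 15.0 CPM in PSC, above every granule protease in both groups. Melanocytes also depend on KIT, and their pigment enzyme gene TYR was at 0 counts in all 6 libraries, with 5 melanocyte markers summing to 2.86 to 4.09 CPM in PSCN and 3.19 to 3.62 CPM in PSC.

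GATA2 (chromosome 6, 88193891 to 88207032) stood at 12.0, 12.2 and 6.24 CPM in PSCN libraries 1 to 3, against 40.5, 21.4 and 4.51 CPM in PSC libraries 1 to 3. The groups overlapped, because PSC library 3 was the lowest of all. The log2 fold change was -1.12 (SE 0.75; edgeR adjusted p = 0.403), and ran from -0.35 without PSC library 1 to -1.59 without PSC library 3. Markers of endothelium, which also makes GATA2, were likewise highest in PSC library 1 and lowest in PSC library 3: the 8 markers, PECAM1, CDH5 and KDR among them, summed to 800, 668 and 459 CPM in PSCN libraries 1 to 3, against 1790, 1040 and 324 CPM in PSC libraries 1 to 3. All 8 were tested and had a negative log2 fold change, with a median of -0.69. With edgeR 0 of the 8 had an unadjusted p under 0.05, and their part in the GATA2 values was not tested.

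**Figure D1:**
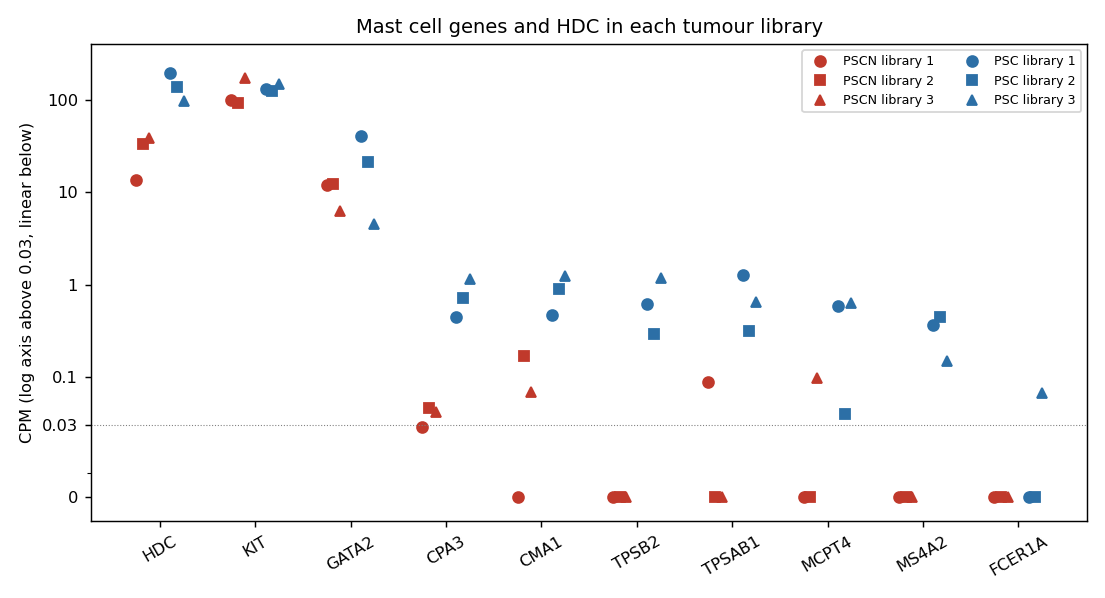
Level of each gene (CPM, vertical axis, logarithmic above 0.03 and linear below) in PSCN libraries (red, left of each pair) and PSC libraries (blue, right), with a marker shape for each library number. HDC, KIT and GATA2 lie between 4.51 and 195 CPM, the other 7 genes lie at or below 1.27 CPM, and TPSB2, MS4A2 and FCER1A are at 0 in all 3 PSCN libraries.

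Of the 10 genes, 8 passed the filter on low counts. CPA3, CMA1, TPSB2, TPSAB1 and MS4A2 did so through their PSC libraries, which fixes their direction, so counts over the genes that passed are a description. With edgeR 0 of the 8 passed an adjusted p of 0.05, as did 0.00472% of all genes tested. At p under 0.05 before adjustment, 6 of the 8 (CPA3, HDC, MS4A2, TPSB2, TPSAB1 and CMA1) had lower levels in PSCN, against 12.2% of all genes tested. In the same 6, all PSCN libraries lay below all PSC libraries, which held for 13.4% of all genes tested. The median log2 fold change of the 8 was -3.83, and -3.15 with TPSB2 and MS4A2 at their bounds, beside -0.01 over all genes tested.

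**Figure D2:**
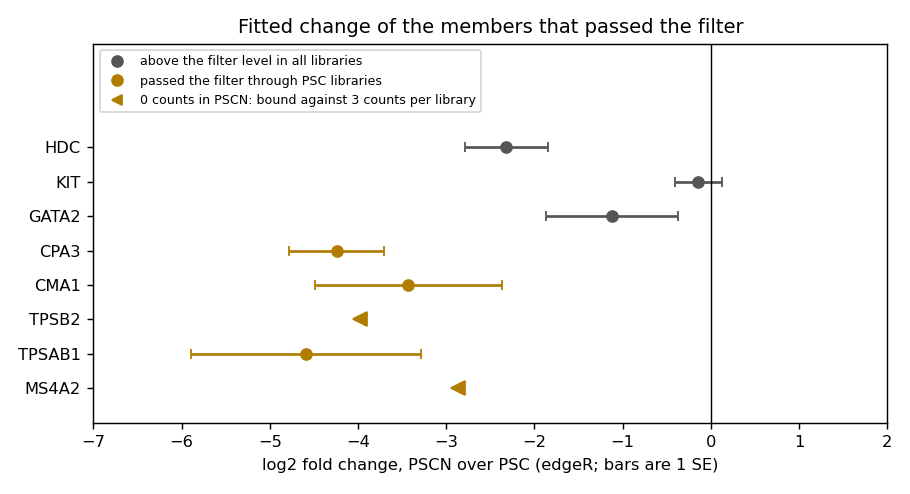
Log2 fold change of PSCN over PSC (horizontal axis; bars are 1 SE) for the 8 genes that passed the filter. Grey points were above the filter level in all 6 libraries, ochre points passed through PSC libraries, and triangles are bounds for genes with 0 counts in PSCN; KIT spans 0, and HDC lies at -2.32.

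The calls depended on the tool and on a single library. DESeq2 called 5 of the 8 lower (CPA3, HDC, TPSB2, TPSAB1 and CMA1), where it called 9.09% of genes lower, and gave MS4A2 no adjusted p. limma-voom with sample quality weights called these 5 and MS4A2 lower, where it called 5.84% of genes lower. In the authors' deposited table, where 8.10% of genes were lower at an adjusted p under 0.05, the log2 fold change was -4.30 for CPA3 (adjusted p = 4.67e-06 by DESeq2), -2.32 for HDC (adjusted p = 0.000476 by DESeq2) and -6.90 for MS4A2 (adjusted p = 0.000441 by DESeq2), the last being a fitted value against 0 counts and no bound. Without PSC library 3, edgeR called CPA3 (adjusted p = 0.0403), HDC (adjusted p = 0.0463) and MS4A2 (adjusted p = 0.0456) lower, where it called 5.40% of genes lower. KIT and GATA2 passed in none of these fits. Sex as read from XIST cannot be compared within PSCN, where every library was read as male. PSC library 1, the PSC library read as male, had a protease sum of 3.40 CPM and HDC at 195 CPM, both above every PSCN library. It also had the lowest squamous marker sum (121 CPM), so in this library sex and tissue content cannot be told apart. With sex as a covariate in edgeR, the log2 fold change was -2.77 (SE 0.55, adjusted p = 0.172) for HDC and -3.45 (SE 0.56, adjusted p = 0.15) for CPA3, neither passing. With that covariate 5 of the 8 genes, in place of 6, had an unadjusted p under 0.05, because CMA1 stood at -2.55 (SE 1.30; edgeR unadjusted p = 0.106). The share of all genes at that level was not counted for this fit. GATA2 stood at -2.0 (SE 0.82; edgeR unadjusted p = 0.0571) with the covariate.

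Beyond the 10 genes, 66 genes of mast cell biology in 7 lists were looked up, of which 53 were tested. With edgeR 0 passed the adjusted threshold, and at an unadjusted p under 0.05 the count was 3 lower (IL1RL1, HNMT and LAT) and 0 higher. Those 3 are 5.66% of the 53, beside 12.2% lower and 9.48% higher among all genes tested. All PSCN libraries lay below all PSC libraries in 6 of the 53 and above them in 0, beside 13.4% and 15.2% of all genes tested. DESeq2 called the same 3 lower and no other. The median log2 fold change was -0.17.

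**Figure D3:**
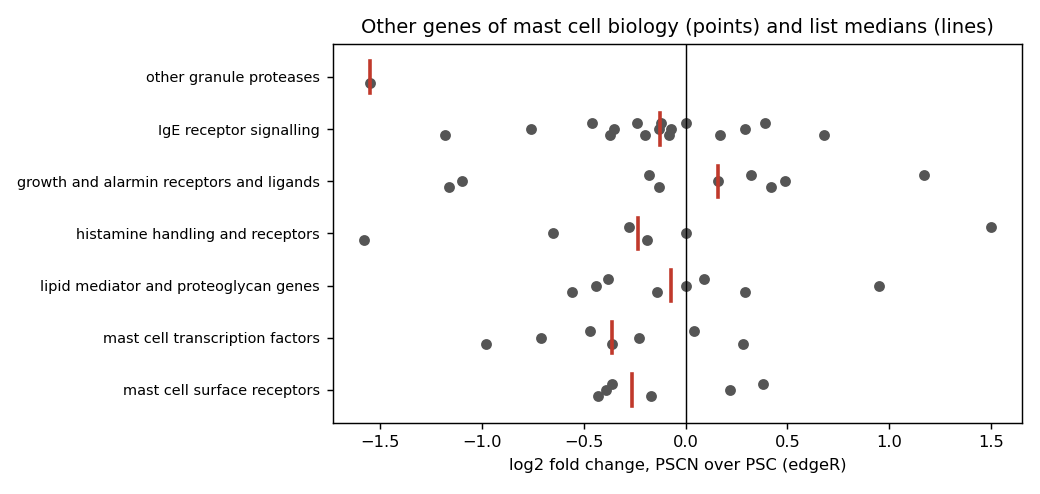
Log2 fold change of PSCN over PSC (horizontal axis) for the tested genes of 7 lists of mast cell biology; each point is a gene and each red line the median of its list. Medians of the lists with more than 1 tested gene lie between -0.36 and 0.16.

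Among other granule proteases, MCPT2, a chymase of mucosal mast cells, had 0 counts in each PSCN library, against 74, 44 and 0 counts in PSC libraries 1 to 3. It did not pass the filter with all 6 libraries, and of the fits run edgeR called it lower in 1, that without PSC library 3 (adjusted p = 0.0440). That fit left out the PSC library with 0 counts, and MCPT2 passed its filter through PSC libraries alone. Its direction there was fixed beforehand, so the call adds no support. MCPT1, of the same mucosal type, had 15, 5 and 0 counts in PSCN libraries 1 to 3, against 16, 50 and 0 counts in PSC libraries 1 to 3, and the groups overlapped. PSC library 3 thus had 0 counts of both mucosal chymases while it had the highest counts of CPA3, CMA1, TPSB2 and MCPT4. For MCPT4 the margin was small, at 46 counts against 44 in PSC library 1. TPSAB1 was instead highest in PSC library 1 (94 counts, against 48 in PSC library 3), and MS4A2 was lowest in PSC library 3 (11 counts). CMA2 and MCPT9 were at 0 in all 6 libraries.

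Downstream of the IgE receptor, all 16 genes were tested, with a median log2 fold change of -0.13. LAT, the adaptor that assembles the signalling complex in mast cells and T cells, stood at 3.30, 3.20 and 5.65 CPM in PSCN libraries 1 to 3, against 8.08, 8.12 and 11.3 CPM in PSC libraries 1 to 3. Its log2 fold change was -1.18 (SE 0.33; edgeR adjusted p = 0.190, DESeq2 adjusted p = 0.0100). For SYK, the kinase recruited to FCER1G, the log2 fold change was -0.07 (SE 0.30), and for the kinase BTK it was -0.76 (SE 0.31).

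Among receptors and ligands, IL1RL1, the IL33 receptor of mast cells and of several lymphoid cell types, stood at 2.04, 1.82 and 1.62 CPM in PSCN libraries 1 to 3, against 4.02, 4.72 and 3.53 CPM in PSC libraries 1 to 3. The groups did not overlap (log2 fold change -1.16, SE 0.28; edgeR adjusted p = 0.183, DESeq2 adjusted p = 5.30e-05). IL33 itself, an epithelial alarmin, stood at 235, 385 and 78.3 CPM in PSCN libraries 1 to 3, against 40.0, 91.4 and 179 CPM in PSC libraries 1 to 3, with overlap. KITLG, the ligand of KIT, stood at 56.1, 61.3 and 64.5 CPM in PSCN libraries 1 to 3, against 228, 131 and 31.4 CPM in PSC libraries 1 to 3. PSC library 3 was the lowest in KITLG as it was in GATA2, and the KITLG log2 fold change was -1.10 (SE 0.65; edgeR adjusted p = 0.349) with all 6 libraries. It was -1.55 (SE 0.26; edgeR adjusted p = 0.0430) without PSC library 3, the 1 fit of those run that called KITLG, and -0.42 (SE 0.58) without PSC library 1.

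**Figure D4:**
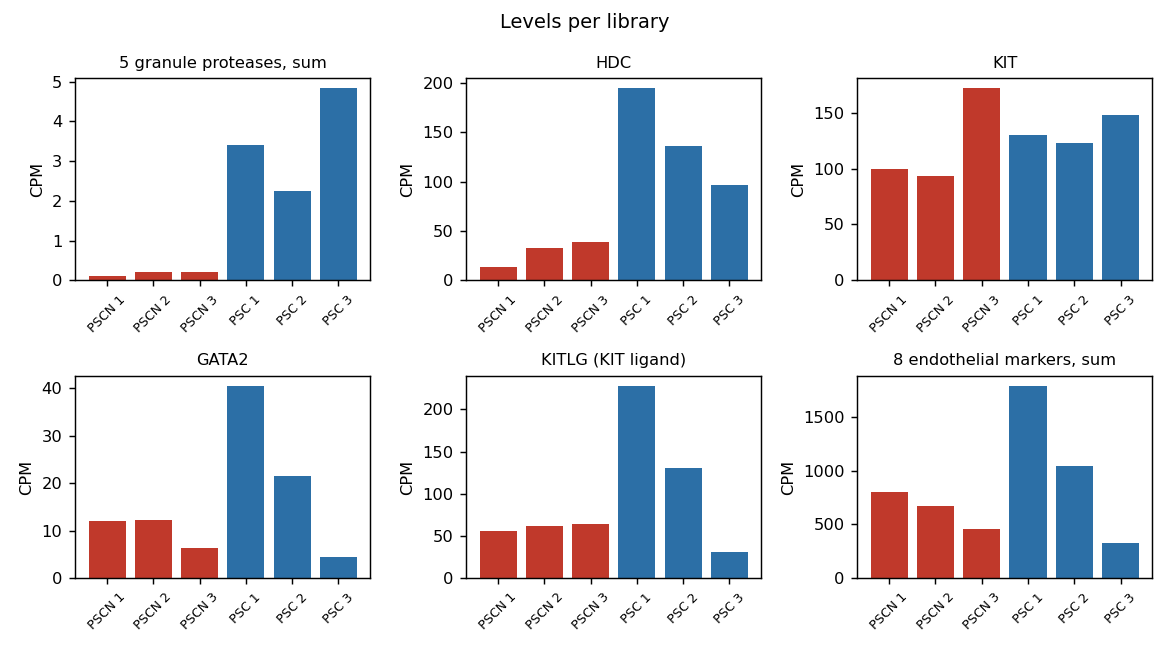
Level per library (CPM, vertical axes from 0) of the summed 5 granule proteases, HDC, KIT, GATA2, KITLG and 8 summed endothelial markers; bars are single libraries, PSCN in red and PSC in blue. The protease sum and HDC separate the groups, KIT does not, and GATA2, KITLG and the endothelial sum are lowest in PSC library 3.

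Among histamine genes, HNMT, the enzyme that inactivates histamine by methylation, stood at 2.14, 2.21 and 2.73 CPM in PSCN libraries 1 to 3, against 8.21, 9.49 and 3.50 CPM in PSC libraries 1 to 3. It had a log2 fold change of -1.58 (SE 0.43; edgeR adjusted p = 0.189, DESeq2 adjusted p = 0.00912). SLC18A2, which loads histamine into granules, was at 2.93 to 3.18 CPM in PSCN and 3.39 to 4.05 CPM in PSC (log2 fold change -0.28, SE 0.24). Of the receptors, HRH1 was at 1.5 on the log2 fold change scale (SE 0.82; edgeR adjusted p = 0.325) and HRH2 at -0.19 (SE 0.67), and HRH4 had 2 counts in a single PSC library.

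The 8 tested genes of lipid mediators and proteoglycans had a median log2 fold change of -0.07. SRGN, the granule proteoglycan of mast cells and many other leukocytes, stood at 48.6, 80.4 and 128 CPM in PSCN libraries 1 to 3, against 54.7, 51.3 and 151 CPM in PSC libraries 1 to 3. PTGS2, the inducible prostaglandin synthase, had overlapping groups and was at 0.95 (SE 0.58) on the log2 fold change scale. Of the transcription factors, GATA1, a partner of GATA2 in mast cells, had 7, 0 and 0 counts in PSCN libraries 1 to 3, against 39, 23 and 0 counts in PSC libraries 1 to 3. The log2 fold change was -0.71 (SE 0.57) for MITF and 0.04 (SE 0.32) for SPI1. STAT5A, which acts below KIT and cytokine receptors, was lower in every PSCN library than in any PSC library (log2 fold change -0.36, SE 0.15; edgeR adjusted p = 0.243). The 6 tested surface receptors had a median log2 fold change of -0.26, with CD63, a granule membrane protein found on many cells, at 0.22 (SE 0.20).

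Markers of the cells that share these genes were read beside them. The 5 markers of all leukocytes summed to 367, 292 and 448 CPM in PSCN libraries 1 to 3, against 328, 472 and 652 CPM in PSC libraries 1 to 3, with overlap and a median log2 fold change of -0.35. All 5 had a negative log2 fold change, and 1 of them, CORO1A, an actin-binding protein of leukocytes, had an unadjusted p under 0.05 (log2 fold change -0.77, SE 0.29; edgeR adjusted p = 0.211). CORO1A stood at 48.7, 38.9 and 61.5 CPM in PSCN libraries 1 to 3, against 65.0, 72.2 and 116 CPM in PSC libraries 1 to 3, without overlap. Basophils share CPA3 and MS4A2 with mast cells: their defining proteases were at 0 counts in all 6 libraries for PRSS34, and at 4, 7 and 5 counts in PSCN against 4, 6 and 0 counts in PSC for MCPT8. The basophil list of 7 genes, nearly all of whose signal is IL6R and ITGA2, which other cells make too, summed to 58.3 to 84.5 CPM in PSCN and 74.5 to 103 CPM in PSC. Of its 4 tested genes, whose median log2 fold change was -0.70, 1 had an unadjusted p under 0.05 with lower levels in PSCN, IL6R, a cytokine receptor chain (log2 fold change -0.67, SE 0.19; edgeR adjusted p = 0.191, DESeq2 adjusted p = 0.0454). All PSCN libraries lay below all PSC libraries in IL6R and in IL4, a cytokine of basophils, mast cells and T cells (log2 fold change -0.73, SE 0.32; edgeR adjusted p = 0.249). CD200R3, a surface receptor of basophils and mast cells, had 35, 0 and 0 counts in PSCN libraries 1 to 3, against 15, 54 and 86 counts in PSC libraries 1 to 3, with overlap. Neutrophils and macrophages can also make HDC. Neutrophil markers summed to 211 to 1090 CPM in PSCN and 37.0 to 454 CPM in PSC. Most of the sum in PSCN was S100A8 and S100A9, at 581 and 426 CPM in PSCN library 3. Of the 6 tested neutrophil markers, 4 had a positive log2 fold change and 2 a negative one, NGP (-0.95) and RETNLG (-0.96). Macrophage markers summed to 393 to 995 CPM in PSCN and 383 to 1030 CPM in PSC. At p under 0.05 before adjustment edgeR had 0 of 6 neutrophil and 0 of 8 macrophage markers. Airway club cell markers summed to 571 to 1960 CPM in PSCN and 3740 to 27300 CPM in PSC, and edgeR gave all 6 an unadjusted p under 0.05 with lower levels in PSCN. At p under 0.05 before adjustment, lower levels in PSCN were seen for 6 of 6 ciliated cell, 3 of 6 alveolar type 2, 3 of 5 smooth muscle and 0 of 6 fibroblast markers, while all PSCN libraries lay below all PSC libraries in 1, 2, 3 and 0 of them. Summed ciliated cell markers reached 40.7, 27.3 and 60.0 CPM in PSCN libraries 1 to 3, against 669, 330 and 35.2 CPM in PSC libraries 1 to 3, and summed alveolar type 2 markers 2120, 2280 and 2810 CPM in PSCN, against 6850, 12300 and 1470 CPM in PSC. PSC library 3 thus lay within the PSCN range in the ciliated sum and below every PSCN library in the alveolar sum, whereas its protease sum was the highest of all. Summed smooth muscle markers reached 258, 183 and 168 CPM in PSCN libraries 1 to 3, against 1280, 178 and 226 CPM in PSC libraries 1 to 3, where library 1 alone stood above the PSCN range. Summed fibroblast markers reached 41200, 1750 and 1040 CPM in PSCN libraries 1 to 3, against 2770, 1370 and 3860 CPM in PSC libraries 1 to 3. PSCN library 1, far above the rest in that sum, also had the lowest HDC level and the lowest protease sum. That protease sum rested on 8 counts, against 14 and 15 in PSCN libraries 2 and 3. Within PSC, library 3 had the highest fibroblast sum, with the lowest HDC level but the highest protease sum (4.84 CPM). The part of these cell types in the mast cell values was not tested.

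Among 13544 candidate genes for CPA3 and 13543 for HDC, those whose centred log2 CPM over the 6 libraries lay nearest to CPA3 were CFTR (root mean square difference 0.27), IGHM (0.39), CES1E (0.51), P2RX2 (0.52) and ARL14 (0.59). IGHM, the heavy chain of IgM, stood at 21.6, 15.3 and 18.0 CPM in PSCN libraries 1 to 3, against 79.5, 139 and 232 CPM in PSC libraries 1 to 3. Nearest to HDC were IGHA (0.23), IGLC2 (0.31), IGKV1-117 (0.31), MPIG6B (0.34) and SCN2B (0.36). IGHA, the heavy chain of IgA, stood at 92.4, 192 and 360 CPM in PSCN libraries 1 to 3, against 1130, 825 and 678 CPM in PSC libraries 1 to 3, the same order of libraries as HDC. A prior count of 2 was added before taking logs, which narrows differences at low counts. CPA3 had 2, 3 and 3 counts in PSCN libraries 1 to 3, so its distances and ranking depend in part on that prior. Likeness over 6 libraries describes these libraries only.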

How the data were processed

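Estimated counts per gene symbol, deposited by the authors as whole numbers and so not rounded, were analysed with count tests for 3 PSCN and 3 PSC libraries. Per the labels' protocols, libraries were stranded total RNA, read in pairs of 76 nt. In the submitters' processing notes the tools are DESeq2, StringTie, HISAT2 and Trimmomatic, with no version, and the genome is GRCm38. Columns were matched to samples by letter and number, a match that the labels do not spell out. A second table from the authors holds, from DESeq2, the mean normalized signal, log2 fold changes of PSCN over PSC, their standard errors and Wald statistic scores, and p-values.

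Genes were filtered with filterByExpr (minimum count 10), scaled with TMM factors and tested with edgeR 4.0.16 (quasi-likelihood F test, R 4.3.3), with Benjamini-Hochberg adjustment over 21201 genes. SE was taken as the absolute log2 fold change over the root of F. Residual degrees of freedom were 4. The smallest two-sided p of an exact permutation test of 3 against 3 is 0.1, so none was run. CPM per kilobase uses merged exon lengths of GENCODE M21 (GRCm38), which matched 45341 symbols. Alternatives were RLE and upper quartile factors, DESeq2 1.42.0, limma 3.58.1 (voom with quality weights), no filter, 1 CPM in 3 libraries, each library left out, and a replicate block. Sex as a covariate was added after seeing the data. The fits were also run on simulated counts with known changes. Those counts held no outlying library and no difference in tissue content, so they do not show how the fits behave with such libraries. The members, the 19 other gene lists and the tests were chosen with earlier results of these data known. KITL, IL6RA and TRP63 were read as KITLG, IL6R and TP63. Named genes are all 10 members, NSD3, up to 4 genes with the smallest p of each other mast cell list, partners of a member at or near 0, and the 5 genes nearest to CPA3 and to HDC among genes of at least 1 CPM. SRGN, SYK, HRH2, HRH4, MCPT2, CMA2, MCPT9, GATA1, MITF, SPI1 and the marker genes were named after their values were seen.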

Additional observations from a re-analysis of the deposited data

How the results depend on the processing

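With edgeR, 1 gene of all those tested and 0 of the 10 mast cell genes passed an adjusted p of 0.05. At an unadjusted p under 0.05, edgeR had 6 of the 8 tested mast cell genes, all lower in PSCN. At that level 12.2% of all genes tested were lower and 9.48% higher. DESeq2 passed 2960 genes, 5 of the 10 and 3 of the other mast cell lists, and limma-voom with quality weights passed 3026 genes, 6 of the 10 and 2 of the other lists. Requiring 1 CPM in 3 or more libraries passed 3 genes. It left HDC, KIT and GATA2 alone among the 10, with a median log2 fold change of -1.17. With sex as a covariate, 0 genes passed and the median was -3.11. Leaving out each library in turn gave 0 to 1946 genes, 0 to 3 of the 10, 0 to 3 of the other lists and a median from -4.12 to -3.02, the highest counts all coming without PSC library 3. KIT stood at 0.00 on the log2 scale with limma-voom with quality weights and without PSCN library 1. No other direction among the 8 tested genes changed under these alternatives. For CPA3, CMA1, TPSB2, TPSAB1 and MS4A2, which passed the filter through their PSC libraries, the direction was fixed beforehand, so its constancy adds no support. The cause of these differences was not tested.

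Deviations of same-numbered libraries from their group had correlations of 0.19, -0.05 and 0.02 for numbers 1, 2 and 3. Pairs with unlike numbers ran from -0.18 to 0.19. With 3 libraries per group these values cannot show whether the numbers pair the samples, and no label says that they do. With a replicate block 0 genes and 0 of the 10 passed, and the median was -4.01. These medians include fitted values of genes at 0 in PSCN. Counts under 100 per library in 7 of the 10 genes limit the precision of their fold changes.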
